A study of Mus musculus with 2 samples.

Results

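The miR-15, miR-16, miR-195 and miR-497 genes were examined in microRNA sequencing libraries of the mouse embryonic facial prominence. The set was chosen by gene name and holds 6 of the 1973 miRNA genes with a row in the deposited counts: Mir15a, Mir16-1, Mir15b, Mir16-2 and Mir195a, read on their own strand, and Mir497b, whose opposite strand stands for Mir497. Both libraries come from facial prominence tissue of strain B6NCrl at embryonic day 14.5, with no treatment or other genotype, and form 1 group of 2 biological replicates. The labels speak of a single pup's face for each replicate and also of pooled sexes, so a replicate may be 1 embryo or several. Collection day and replicate coincide and cannot be told apart.

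MicroRNAs are short RNAs cut from hairpin precursors, and they repress messenger RNAs that pair with a short stretch near their 5′ end, the seed. The miR-15 and miR-16 family is known for repressing cell cycle genes such as cyclins D and E and the survival gene Bcl2. The Mir15a and Mir16-1 cluster lies in Dleu2, a noncoding gene lost in many chronic lymphocytic leukaemias, and Mir195a and Mir497 are known for restraining division of heart muscle cells around birth.

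The mature sequences are shown because the members share a seed, and because overlap between sequences may bear on which reads were counted. They come from RefSeq (GRCm38.p6, the assembly also called mm10), 5′ to 3′, with the seed (bases 2 to 8) in capitals.
miR-15a-5p: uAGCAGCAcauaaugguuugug
miR-15b-5p: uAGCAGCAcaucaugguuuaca
miR-16-5p: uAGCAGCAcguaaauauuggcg
miR-195a-5p: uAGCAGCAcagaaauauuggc
miR-497a-5p: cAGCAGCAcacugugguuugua
miR-322-5p: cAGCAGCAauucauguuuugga
All 5 of the 5p products of the set carry the same seed, as does miR-322-5p of the X-linked Mir322 gene, which is not in the set. Over all positions compared, seed included, miR-16-5p and miR-195a-5p were the closest pair, identical at 19 of 21 positions. Counted from the 5′ end, miR-195a-5p differs by G10A and U11G. The products of Mir15a and Mir15b matched at 18 of 22 positions, and miR-16-5p and miR-497a-5p at 11 of 22. The mature products are 21 or 22 bases long, so counts were not divided by length.

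The count files have the layout of STAR gene counts, in which only uniquely placed reads reach a gene and a read that matches several sites goes to a summary row (29.8% of the reads of replicate 1, 28.5% of replicate 2). This bears on miR-16, whose 5p product is made from 2 genes. The hairpins of both genes are shown with their longest shared stretch in capitals.
Mir16-1: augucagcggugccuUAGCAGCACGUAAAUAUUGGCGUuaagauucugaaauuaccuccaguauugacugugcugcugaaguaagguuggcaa
Mir16-2: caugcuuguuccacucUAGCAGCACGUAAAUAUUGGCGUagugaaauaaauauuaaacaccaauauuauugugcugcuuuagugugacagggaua
The shared stretch is 23 bases long and holds the whole 22-base miR-16-5p, so a read of exactly that product matches both genes. The 3p products differ, and are shown with bases 2 to 8 in capitals.
miR-16-1-3p: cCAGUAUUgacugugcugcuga
miR-16-2-3p: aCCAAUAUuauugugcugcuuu
The counts of Mir16-1 and Mir16-2 below would, on that reading of the layout, leave out reads of the exact 5p product, and the deposited rows do not say which arm the counted reads came from. The longest stretch shared by a product of the other 4 genes with another miRNA hairpin (Mir497b aside, which overlaps Mir497) was 16 bases, between miR-195a-5p and Mir195b. For the other products of these 4 genes it was 10 or 11 bases.

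The 6 genes form 3 clusters on assembly mm10. Mir15a (ENSMUSG00000093007.1) lies at chr14:61632027-61632110 and Mir16-1 (ENSMUSG00000092995.1) at chr14:61631880-61631972, both on the minus strand, 54 bases apart, in introns of all 8 Dleu2 transcripts that span them. A further single-exon Dleu2 transcript reaches into the last bases of the Mir16-1 hairpin. Mir15b (ENSMUSG00000065580.1) lies at chr3:69009772-69009835 and Mir16-2 (ENSMUSG00000065606.1) at chr3:69009902-69009996, both on the plus strand, 66 bases apart, in introns of all 5 transcripts of Smc4 that span them. Smc4 encodes a condensin subunit needed to compact chromosomes for division. Mir195a (ENSMUSG00000065411.2) lies at chr11:70235042-70235135 and Mir497 (ENSMUSG00000105220.1) at chr11:70234717-70234800, both on the plus strand, 241 bases apart and outside other genes of GENCODE M21, miRNA genes aside.

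**Figure D1:**
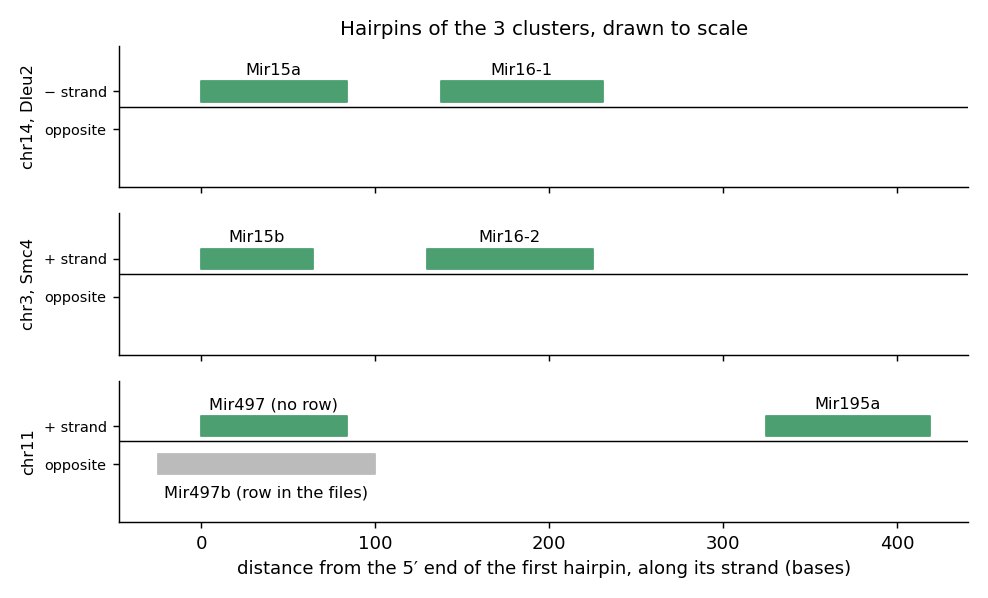
Hairpins of the 3 clusters, drawn to scale along the strand of the cluster; the x axis is the distance in bases from the 5′ end of the first hairpin, green bars are the hairpins and the grey bar is Mir497b on the opposite strand. The gap is 54 bases between Mir15a and Mir16-1, 66 between Mir15b and Mir16-2 and 241 between Mir497 and Mir195a, and Mir497b covers all of Mir497.

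Mir497 itself has 0 rows in the files. Mir497b (ENSMUSG00000070109.2), annotated at chr11:70234692-70234816 on the minus strand, covers it whole. The Mir497b row held 1986 opposite-strand counts in replicate 1 and 4128 in replicate 2, against 1 and 0 on its own strand. Nearly all reads at this site thus lay on the strand of Mir497, and these counts are called Mir497 below. The other 5 genes had 0 opposite-strand counts in both libraries.

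Replicate 1 held 2719153 gene-strand miRNA counts and replicate 2 held 6602050, and 717 miRNA genes had at least 1 count. Levels are given as CPM (counts scaled to that total), on which a count of 0 allows up to 1.10 CPM in replicate 1 and 0.454 CPM in replicate 2. Markers of the tissue were present in both libraries: mesenchymal markers summed to 17643 and 12119 CPM, epithelial markers to 52450 and 67435 CPM, and cartilage markers to 43454 and 41703 CPM. Neural markers summed to 743 and 528 CPM over the 6 with a row. Of these, 4 were at 0 (the Mir124a copies and Mir9-2), which have near-identical copies, so reads matching several sites may be missing from them. Reads matching several sites may be missing from the other marker sums as well, the mesenchymal sum among them. The liver marker Mir122 stood at 12.5 and 5.60 CPM.

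All 6 genes were well above the floor, and Mir15a led the set. Together they stood at 9463 CPM in replicate 1 and 10096 CPM in replicate 2, a mean of 9780 ± 448 CPM (SD, n = 2), about 1% of the counts (0.946% and 1.01%). The Dleu2 cluster held 66.1% of this sum (65.6% and 66.6%). The chromosome 11 cluster held 17.7% (17.1% and 18.2%) and the Smc4 cluster 16.2% (17.3% and 15.2%). The order of these last 2 clusters turned between the libraries, so their levels cannot be ranked.

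Mir15a reached 4052 CPM in replicate 1, from 11019 counts, and 4196 CPM in replicate 2, from 27699 counts. Its mean level of 4124 ± 101 CPM was 42.2% of the set and ranked 50 among the miRNA genes. Mir16-1, its partner in the Dleu2 cluster, stood at 2154 CPM (5858 counts) and 2529 CPM (16696 counts), a mean of 2342 ± 265 CPM and rank 71. Both Dleu2 genes were above the other 4 genes of the set in each library, although exact 5p reads may be missing from the count of Mir16-1.

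The other 4 genes lay close together. Mir195a stood at 890 CPM (2419 counts) and 1213 CPM (8008 counts), a mean of 1051 ± 229 CPM and rank 101. Mir15b, whose product carries the same seed on a largely shared sequence with miR-15a-5p, stood at 958 CPM (2604 counts) and 837 CPM (5525 counts), a mean of 897 ± 85.4 CPM and rank 109. Mir195a was below Mir15b in replicate 1 and above it in replicate 2, so these neighbours in the order did not differ beyond their spread.

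The lowest members were Mir16-2 and Mir497. Mir16-2 stood at 679 CPM (1846 counts) and 697 CPM (4600 counts), a mean of 688 ± 12.6 CPM and rank 118. Mir497 stood at 730 CPM (1986 counts) and 625 CPM (4128 counts), a mean of 678 ± 74.3 CPM and rank 119. Their order also turned between the libraries, while Mir15b was above Mir16-2 in both.

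**Figure D2:**
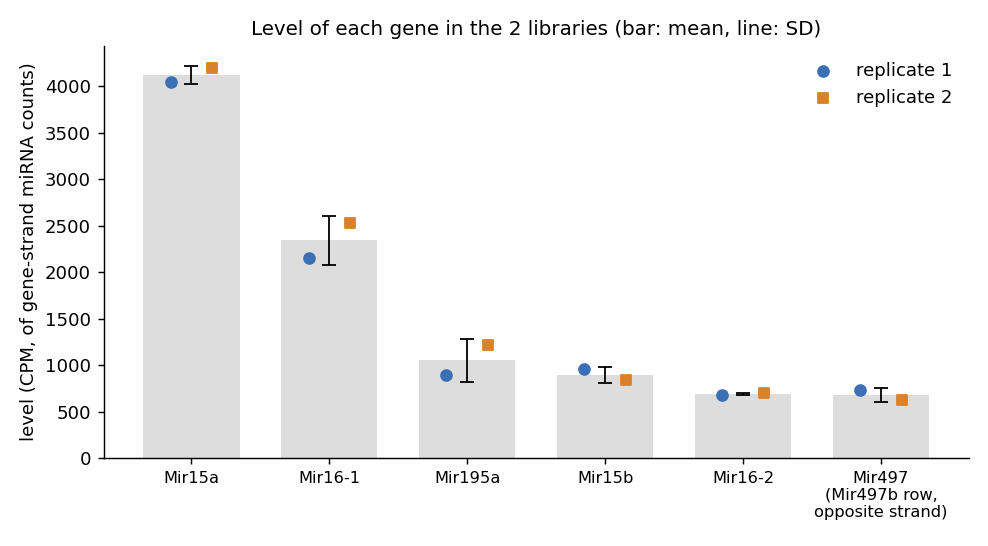
Level of each gene in CPM on a linear axis, with the grey bar as the mean of 2 replicates, the line as the SD, the circle as replicate 1 and the square as replicate 2. Mir15a (4052 and 4196 CPM) and Mir16-1 (2154 and 2529 CPM) stand above the other 4 genes, which lie between 625 and 1213 CPM.

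Counting error was small beside the gap between the Dleu2 genes and the other 4, but in replicate 1 the intervals of Mir195a and Mir15b overlapped, as did those of Mir16-2 and Mir497. The exact (Clopper-Pearson) 95% interval was 3977 to 4129 CPM for Mir15a in replicate 1 and 4146 to 4245 CPM in replicate 2. For Mir16-2, the least deeply counted gene in replicate 1, it was 648 to 711 CPM and 677 to 717 CPM, and only for Mir16-2 did the intervals of both libraries overlap. Intervals and floors cover counting error alone, since no molecular identifiers are described.

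The miR-15 gene was counted above the miR-16 gene in both clusters that pair them. The log2 ratio of the levels of Mir15a and Mir16-1 was 0.91 in replicate 1 (exact 95% counting interval 0.87 to 0.96) and 0.73 in replicate 2 (0.70 to 0.76), a mean of 0.82 ± 0.13 (SD, n = 2). For Mir15b and Mir16-2 it was 0.50 (0.41 to 0.58) and 0.26 (0.21 to 0.32), a mean of 0.38 ± 0.16. Whether exact miR-16-5p reads were lost, and what part this has in these ratios, was not tested, and an exact test across 2 libraries cannot go below p = 0.5. For Mir195a and Mir497, whose products share at most 16 bases with any other hairpin, the log2 ratio was 0.28 (0.20 to 0.37) and 0.96 (0.90 to 1.01), a mean of 0.62 ± 0.47.

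Other genes with this seed were either far higher or at 0. RefSeq lists 11 mouse genes with a product of this seed, all with a row in the files (Mir497 through Mir497b), and 7 of them had over 3 counts in each library. Mir322, which lies in an X-linked cluster with Mir503, stood at 39815 CPM in replicate 1 and 29801 CPM in replicate 2. Mir195b, Mir6342, Mir6353 and Mir6419 had 0 counts in both libraries. Mir503, whose seed is not identical, stood at 2172 and 1560 CPM, and Mir1907 had 1 and 0 counts.

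Of the counts on genes with this seed, the set therefore held 22.3% ± 4.31 (19.2% in replicate 1 and 25.3% in replicate 2), and Mir322 the rest. The share of the set was higher in replicate 2, where Mir322 was lower and 4 of the 6 genes were higher in CPM. Exact miR-16-5p reads may be missing from this share.

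**Figure D3:**
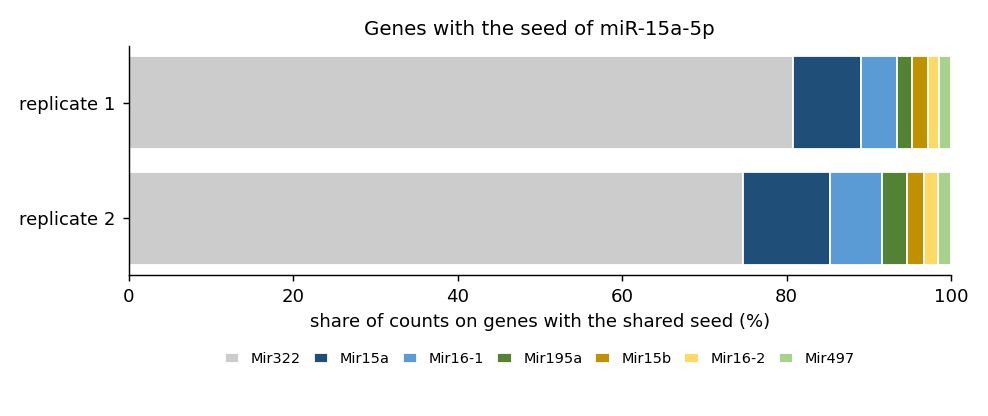
Share of the counts on genes with the seed of miR-15a-5p, in percent on the x axis, with 1 bar for each replicate and 1 colour for each gene. The grey part is Mir322, and the 6 genes of the set make up 19.2% in replicate 1 and 25.3% in replicate 2.

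The 3 miRNA genes nearest to Mir15a in level, by distance in log2(CPM + 1) over the 2 libraries among genes at or above 100 CPM on average, were Mir181c, Mir151 and Mir30a. Mir181c stood at 4659 and 3971 CPM (distance 0.22), Mir151 at 4205 and 3621 CPM (distance 0.22) and Mir30a at 4657 and 3879 CPM (distance 0.23). All 3 were lower in CPM in replicate 2, whereas Mir15a was slightly higher, with a log2 ratio of 0.050 with total counts. Lower was the usual direction on this scale. Over the 373 genes with a mean of at least 10 counts the median log2 ratio was -0.14.

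The replicates differed more in some of these genes than counting error allows. Ratios of replicate 2 over replicate 1 were scaled by TMM effective library sizes, and each gene's counts were compared by an exact two-sided binomial test with Benjamini-Hochberg adjustment over the 373 genes with a mean of at least 10 counts. The test compares 2 libraries, not conditions. It called 5 of the 6 genes, 4 higher and 1 lower in replicate 2, against 52.3% of all tested genes in either direction, 27.3% higher and 24.9% lower. Among genes with a mean of at least 1000 counts, as all 6 genes have, 84.8% (139 of 164) were called in either direction. The members' count of calls is thus near the background at this depth. Shares by direction were not computed at this depth, so the 4 higher and 1 lower have no matched background. The median log2 ratio was 0.17 over the 6 genes and -0.016 over all tested genes, and the median size of the log2 ratio over all tested genes was 0.25.

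Scaling moved every ratio by the same amount. TMM lay 0.13 above total counts on the log2 scale. With total counts 5 of the 6 genes were again called, 3 higher and 2 lower, against 53.1% of all tested genes, 17.2% higher and 35.9% lower, and the median of all tested genes was -0.14.

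Mir195a had the largest difference of the set. Its log2 ratio was 0.57 (counting SE 0.033, exact 95% interval 0.51 to 0.64, exact binomial test with adjusted p = 4.01e-69), a 1.49-fold higher level in replicate 2. Of the 373 tested genes 60 (16.1%) had a log2 ratio of larger size. With total counts the log2 ratio was 0.45.

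The genes of the Dleu2 cluster were also higher in replicate 2. Mir16-1 had a log2 ratio of 0.36 (SE 0.022, exact binomial test with adjusted p = 4.55e-61), and 33.0% of tested genes had a larger one in size. Mir15a had a log2 ratio of 0.18 (SE 0.016, exact binomial test with adjusted p = 4.69e-27), and 63.8% had a larger one. With total counts these ratios were 0.23 and 0.050, both still past the test.

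In the Smc4 cluster the ratio of Mir16-2 was 0.16 (SE 0.040, exact binomial test with adjusted p = 9.83e-05), and with total counts it was 0.037 and did not pass (exact binomial test with adjusted p = 0.457, and 7.23e-08 to 0.457 over all settings). Mir15b had a log2 ratio of -0.069 (SE 0.034, exact binomial test with adjusted p = 0.0835), which did not pass, and -0.19 with total counts, which did (exact binomial test with adjusted p = 6.14e-08, and 6.14e-08 to 0.853 over all settings). The ratio of Mir497 was -0.098 (SE 0.039, exact binomial test with adjusted p = 0.0263). It stayed past the test with total counts, at -0.22, but not with DESeq2 size factors, at -0.041 (exact binomial test with adjusted p = 0.418, and 6.06e-08 to 0.476 over all settings).

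**Figure D4:**
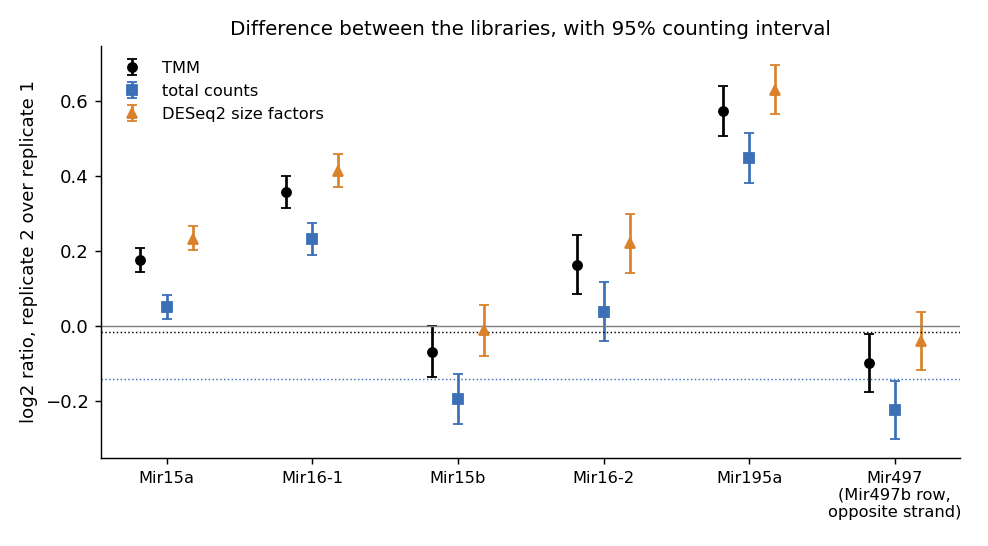
Log2 ratio of replicate 2 over replicate 1 for each gene on the y axis under 3 scalings, with 95% counting intervals; the dotted lines are the medians of all tested genes, -0.016 with TMM (black) and -0.14 with total counts (blue). Mir195a is highest under each scaling (0.57 with TMM), and Mir15b and Mir497 lie below 0 under all 3.

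The miRNA levels of the libraries differed in other ways beside these ratios. The sum of mesenchymal markers (4 of 4 with a row, none at 0) was lower in replicate 2, at 12119 against 17643 CPM. The endothelial marker Mir126a was higher, at 54165 against 41674 CPM, as was the epithelial sum. Genes of the epithelial list did not all move alike. TMM log2 ratios were 0.31 for Mir200b, 0.26 for Mir429, 0.21 for Mir141 and 0.12 for Mir200c, but -0.070 for Mir200a. With total counts each of these lies 0.13 lower. Leukocyte markers (3 of 4 with a row, none at 0) stood at 633 and 807 CPM, and erythroid markers (3 of 3, none at 0) at 1093 and 1406 CPM. Skeletal muscle markers (5 of 6 with a row, none at 0) stood at 11714 and 13351 CPM. The neural sum given above was lower in replicate 2. Reads matching several sites may be missing from any of these sums, also where no gene is at 0. The part of these differences in the ratios of the 6 genes was not tested, and in bulk tissue fewer cells of a type and less RNA per cell cannot be told apart. The biological coefficient of variation between the replicates over all tested genes was 20.9%.

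The log2 ratios of Mir195a and Mir497, whose hairpins lie 241 bases apart on 1 strand, had opposite signs. The same held for Mir15b and Mir16-2, where Mir15b was near 0 with DESeq2 size factors, at -0.011. Such signs rest on the scaling of libraries, but comparing the counts of 2 genes with each other needs none. Fisher's exact test of the counts was run on all 15 pairs of the 6 genes, with Benjamini-Hochberg adjustment over them. It was chosen after the data were seen and covers counting error only. In it 13 pairs differed. Of 49 pairs of neighbouring miRNA genes with a mean of at least 1000 counts each, described below, 43 (87.8%) differed too, so differing pairs are common at this depth. The log2 ratio of Mir195a exceeded that of Mir497 by 0.67 (SE 0.052, Fisher's exact test with adjusted p = 2.38e-37). That of Mir15a was below Mir16-1 by 0.18 (difference -0.18, SE 0.027, Fisher's exact test with adjusted p = 5.98e-11), and that of Mir15b below Mir16-2 (difference -0.23, SE 0.052, Fisher's exact test with adjusted p = 1.24e-05). The 2 pairs that did not pass were Mir15a with Mir16-2 (difference 0.013, SE 0.043) and Mir15b with Mir497 (difference 0.030, SE 0.052).

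The log2 ratios of neighbouring miRNA genes were compared in the same way, also after the data were seen. Among 113 pairs of neighbours on 1 strand within 10 kb, 56 (49.6%) differed past Fisher's exact test at an adjusted threshold of 0.05. Of the 49 pairs in which each gene had a mean of at least 1000 counts, 43 (87.8%) did. With TMM scaling the 2 log2 ratios had opposite signs in 47 of the 113 pairs and in 24 of the 49, so opposite signs were common among neighbours. These counts of signs depend on the scaling. The median size of the difference over these 49 pairs was 0.27. Mir497 and Mir195a ranked 2 of the 49 in size, after Mir351 and Mir503 (0.77), while Mir15b with Mir16-2 (rank 28) and Mir15a with Mir16-1 (rank 36) lay in the lower part. Pairs share genes and come from the same 2 libraries, so these ranks describe the libraries only.

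**Figure D5:**
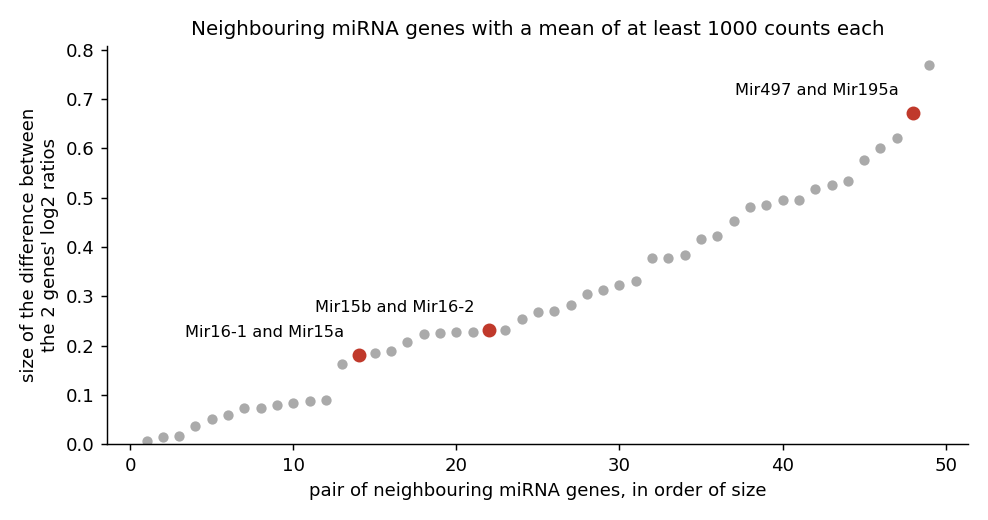
Size of the difference between the log2 ratios of 2 neighbouring miRNA genes on the y axis, for 49 pairs in rising order on the x axis; red points are the pairs of the set and grey points all others. Mir497 and Mir195a (0.67) stand near the upper end, and the pairs of Mir15b and Mir16-2 (0.23) and of Mir16-1 and Mir15a (0.18) below the median of 0.27.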

How the data were processed

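MicroRNA sequencing libraries of 2 biological replicates were analysed, 1 library each. The authors deposited unnormalized counts of reads per miRNA gene; per the labels and the deposited metadata text they rest on assembly mm10 and GENCODE M4. Aligner and settings: not given in the sources used here. There are 1973 gene rows per file, 4 summary rows (left out of library sizes and tests) and 3 count columns, whose layout is that of STAR gene counts: both strands, gene strand and opposite strand.

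Gene names and positions came from GENCODE M21 by identifier, and sequences from RefSeq (GRCm38.p6) and GENCODE M21. CPM were scaled to the gene-strand total. TMM factors (edgeR 4.0.16) used genes with a mean of at least 10 counts, a choice made after the data were seen. Log2 ratios had a prior of 0.5 counts, and exact binomial tests (scipy 1.17.1) a threshold of 0.05. The binomial step was tested on simulated data with counting error only, which cannot show how it behaves with spread between replicates. The coefficient of variation is the square root of edgeR's common dispersion (intercept-only design).

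The members and lists were chosen with earlier results of these data known. Named genes are the 6 members, genes of the same seed, the 3 genes nearest to the highest member, and miRNA genes within 10 kb of a member, besides the marker lists; Mir351 was named after its values were seen. The labels call the replicates biological and give them different collection days. Alternatives were total counts, DESeq2 1.42.0 size factors, the unstranded column, other count filters and priors, other totals for the levels, thinning of replicate 2 and leaving out each replicate.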

Additional observations from a re-analysis of the deposited data

How the results depend on the processing

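Of the ratios between the libraries, none changed direction under total counts, DESeq2 size factors, the unstranded column, no count filter, a mean of at least 100 counts, a prior of 2 counts or thinning of replicate 2. The calls of Mir15a, Mir16-1 and Mir195a held under all 7. Mir15b (log2 ratio -0.069) passed the exact binomial test with total counts (-0.19) and with replicate 2 thinned (-0.093). Thinning was a single random draw, and Mir15b passed it only narrowly (exact binomial test with adjusted p = 0.0491). Mir16-2 did not pass with total counts (0.037), and Mir497 did not pass with DESeq2 size factors (-0.041) or with no count filter (-0.051). The number of members lower in replicate 2, 1 in the main analysis, was 2 with total counts and with thinning, and 0 with DESeq2 size factors and with no count filter, where Mir497 and Mir15b missed the test (also at an unadjusted p under 0.05). With no count filter TMM also used all rows, which placed the ratios 0.17 above total counts instead of 0.13. Scaled to all reads, levels were lower by construction: 4781 CPM for the sum, 2016 for Mir15a, 1145 for Mir16-1, 515 for Mir195a, 438 for Mir15b, 336 for Mir16-2 and 331 for Mir497. Scaled to both strands' counts, and in the unstranded column, Mir15a stood at 3944 CPM and Mir16-2 at 658 CPM. Leaving out a replicate gave the value of the other (9463 to 10096 CPM for the sum) and no test. No paired analysis was possible because there is 1 group. At this depth the counting SE of a ratio was 0.016 for Mir15a and 0.040 for Mir16-2.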
